A study of Mus musculus with 2 samples.

Results

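The genes described are 10 T cell costimulatory receptors and ligands, namely Cd28, Icos, Tnfrsf4 (OX40), Tnfrsf9 (4-1BB), Tnfrsf18 (GITR), Cd27, Cd40, Cd40lg, Tnfsf9 (4-1BB ligand) and Icosl. They were taken by symbol from the 33696 genes listed for both libraries, and all 10 were listed. They were followed in T, NK, dendritic and macrophage cells, which made up 6529 of the 13939 cells that passed the quality filter and fell into 15 classes. The study profiled subcutaneous tumours of CT26, a mouse colon carcinoma line, in male BALB/c mice 6 to 8 weeks of age by single-cell RNA sequencing. The untreated tumours are called UT, and tumours of mice given a single dose of BUP-Gel, a hydrogel that releases the local anaesthetic bupivacaine (40 mg/kg), are called BUP. Each group was 1 library made from 3 pooled tumours, so no spread between mice could be measured and no test between UT and BUP was possible. CD45+ and CD45- cells were remixed before loading, at 4 to 1 by the series description and at 3 to 1 by the study's methods, so the share of all cells held by a class was in part set by the sort. The time from dosing to harvest was not given in the sources used here.

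T cells respond fully to antigen only when a costimulatory receptor is engaged beside the T cell receptor. Cd28 and Icos belong to the immunoglobulin superfamily and bind B7-type ligands on antigen-presenting cells, whereas OX40, 4-1BB, GITR, CD27 and CD40 are TNF receptor superfamily members that signal through TRAF adaptors to NF-kappa B. OX40, 4-1BB, GITR and Icos are induced or raised by activation and are abundant on regulatory T cells in tumours, while CD40 sits on antigen-presenting cells and is engaged by CD40L of helper T cells.

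UT held 7163 cells and 83228442 unique molecular identifiers (UMIs, counted transcripts), and BUP held 6776 cells and 89918925 UMIs. The libraries shared 76 cell barcodes. Levels are given as CPM, counts per 1000000 UMIs, from the UMIs summed over the cells of a class in 1 library. The intervals in parentheses are exact 95% Poisson intervals for levels, exact conditional intervals for log2 ratios of BUP over UT and exact binomial intervals for shares of cells, and all cover counting error only, not differences between mice. A ratio of at least 1.5-fold in a gene with at least 50 UMIs over both libraries is called past the fold, and the percentage of all genes past it in that class and direction is printed beside the count of members. Genes with at least 50 UMIs are called measured.

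The class names held against their markers with some limits. Cd3e stood at 1527 CPM in UT against 1508 CPM in BUP in the CD8 T-like class, Ncr1 at 895 CPM in UT against 824 CPM in BUP in the NK-like class and Ccr7 at 4186 CPM in UT against 3675 CPM in BUP in the migratory DC-like class. The mixed Foxp3 T-like class is called by its leading gene, since it held markers of several T cell types. Foxp3 stood at 265 CPM in UT against 106 CPM in BUP and Cd4 at 144 CPM in UT against 65.02 CPM in BUP there, but Cd8a stood at 128 CPM in UT against 154 CPM in BUP, and in the cells without a Foxp3 UMI, which were most of the class, Cd8a was above Cd4 at 164 CPM in UT against 194 CPM in BUP and 95.6 CPM in UT against 40.9 CPM in BUP. The pDC-like class had Siglech at 1281 CPM in UT against 1036 CPM in BUP, but 6 macrophage markers together reached 21342 CPM in UT against 10007 CPM in BUP there. The cDC2 or moDC-like class was also led by Ctsk and Acp5. Clusters of T or NK cells with low depth (300 cells) or with myeloid genes (113 and 665 cells) were left unnamed and outside the classes. The same 6 macrophage markers summed to 589.7 CPM in UT against 261 CPM in BUP in the CD8 T-like class, and all 6 were lower in BUP. How Tnfrsf4 stood in CD8 T-like cells with few macrophage UMIs is given beside its results. Ratios of other members that moved in such cells are given mainly in the closing section.

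The members lie on 7 chromosomes of the mouse genome build GRCm39. Tnfrsf4 (chr4:156098293-156101069) and Tnfrsf18 (chr4:156110621-156113352) lie on the plus strand of chromosome 4 with 9551 bases and no other protein-coding gene between them, and Tnfrsf9 (chr4:150999019-151030559) lies on the same chromosome. Cd28 (chr1:60755959-60812518) and Icos (chr1:61017086-61039479) are separated on chromosome 1 by 204567 bases that hold Ctla4, which encodes the inhibitory receptor for the same B7 ligands as CD28. The listed gene Gm16008 overlaps both Tnfrsf4 and Tnfrsf18 on the other strand, Vamp1 so overlaps Cd27 and Gm11110 so overlaps Tnfsf9. The strand setting of the authors' counting was not given in the sources used here.

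The 250 bases before the annotated canonical start of 4 members are shown, because Tnfrsf4 and Tnfrsf18 are neighbours whose levels differed unequally between the libraries, and because Tnfrsf9 and Cd40 were the members with a match to either motif searched. The sequences were read 5′ to 3′ from GRCm39, and all 4 genes are on the plus strand. The windows are chr4:156098043-156098292 for Tnfrsf4, chr4:156110371-156110620 for Tnfrsf18, chr4:151012206-151012455 for Tnfrsf9 and chr2:164897294-164897543 for Cd40. Capitals mark matches, on either strand, to the kappa B consensus and to the AP-1 motif TGANTCA.
Tnfrsf4: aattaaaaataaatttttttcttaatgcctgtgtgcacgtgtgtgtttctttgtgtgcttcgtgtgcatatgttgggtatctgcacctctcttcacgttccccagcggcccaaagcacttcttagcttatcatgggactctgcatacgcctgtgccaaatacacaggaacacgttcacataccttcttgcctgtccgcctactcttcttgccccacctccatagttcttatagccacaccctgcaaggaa
Tnfrsf18: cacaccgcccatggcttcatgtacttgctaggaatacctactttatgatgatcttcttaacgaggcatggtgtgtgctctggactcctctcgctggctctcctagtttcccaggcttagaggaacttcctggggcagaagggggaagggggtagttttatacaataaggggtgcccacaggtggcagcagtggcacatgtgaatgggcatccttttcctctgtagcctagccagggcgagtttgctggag
Tnfrsf9: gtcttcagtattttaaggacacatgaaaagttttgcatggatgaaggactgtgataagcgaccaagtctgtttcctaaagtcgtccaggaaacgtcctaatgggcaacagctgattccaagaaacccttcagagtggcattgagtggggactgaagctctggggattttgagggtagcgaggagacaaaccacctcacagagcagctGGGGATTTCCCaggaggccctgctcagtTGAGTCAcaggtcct
Cd40: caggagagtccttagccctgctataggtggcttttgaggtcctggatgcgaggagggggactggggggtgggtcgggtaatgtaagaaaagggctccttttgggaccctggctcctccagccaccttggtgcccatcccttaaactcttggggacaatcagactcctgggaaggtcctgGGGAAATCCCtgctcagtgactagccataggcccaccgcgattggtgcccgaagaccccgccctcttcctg
Tnfrsf9 had 2 overlapping kappa B matches with 33 and 32 bases between their last base and the start, and 1 AP-1 match with 8 bases between. Cd40 had 1 kappa B match with 61 bases between it and the start. The windows of the other 8 members held neither motif. Of 21418 protein-coding genes, 4.22% had a kappa B match and 6.18% an AP-1 match in the same window. The end of the Tnfrsf9 window, which holds its matches, lies in the first exon of another annotated transcript of the gene, and the first bases of the Tnfrsf4 window lie in the last exon of Sdf4. A match describes the letters only.

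The members were split between lymphocytes and antigen-presenting cells. Cd28, the receptor for CD80 and CD86, was highest in the mixed Foxp3 T-like class at 475 CPM in UT against 313 CPM in BUP, above the CD8 T-like class at 282 CPM in UT against 242 CPM in BUP. In NK-like cells Cd28 stood at 137 CPM in UT against 117 CPM in BUP, and in the 4 macrophage classes it did not exceed 8.22 CPM in either library. Cd28 was thus a T and NK transcript in these tumours. Icos was highest in the gamma-delta T-like class, at 507 CPM (342 to 723) in UT against 489 CPM (340.4 to 679.6) in BUP, a class of only 17 UT and 12 BUP cells. The UT intervals of Icos in that class and in the mixed Foxp3 T-like class overlapped, so their order was not resolved in UT. Tnfrsf4 stood at 478 CPM in UT against 374 CPM in BUP in the mixed Foxp3 T-like class, at 143 CPM in UT against 68.2 CPM in BUP over all CD8 T-like cells and at 2.35 CPM in UT against 0.489 CPM in BUP in NK-like cells. No Tnfrsf4 UMI was found in the gamma-delta T-like class, where 0 counts allow up to 50.7 CPM in UT and 41.9 CPM in BUP.

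Tnfrsf18 and Cd27, both receptors of resting and activated lymphocytes, followed T and NK cells as well. Tnfrsf18 stood at 545 CPM in UT against 492 CPM in BUP in the mixed Foxp3 T-like class, at 298 CPM in UT against 217 CPM in BUP over all CD8 T-like cells and at 144 CPM in UT against 124 CPM in BUP in NK-like cells. Cd27 stood at 189 CPM in UT against 152 CPM in BUP in CD8 T-like cells and at 144 CPM in UT against 175 CPM in BUP in the mixed Foxp3 T-like class, with overlapping intervals in each library, and at 41.2 CPM in UT against 44.5 CPM in BUP in NK-like cells. Tnfrsf9 had the widest spread of cell types. In NK-like cells it stood at 1103 CPM in UT against 938 CPM in BUP and in CD8 T-like cells at 946 CPM in UT against 1005 CPM in BUP. NK-like cells were thus highest in UT, though with an interval that overlapped that of the mixed Foxp3 T-like class. CD8 T-like cells were highest in BUP, with an interval that overlapped those of the Mcm2 CD8 T-like and NK-like classes. Migratory DC-like cells held Tnfrsf9 at 765 CPM in UT against 536 CPM in BUP and Inhba macrophage-like cells at 208 CPM in UT against 212 CPM in BUP.

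The antigen-presenting members were placed the other way round. Cd40 was highest in migratory DC-like cells at 430.5 CPM in UT against 289.6 CPM in BUP, then in interferon macrophage-like cells at 112 CPM in UT against 118 CPM in BUP, and was at most 3.19 CPM in every T and NK class. Tnfsf9, the ligand of 4-1BB, was highest in migratory DC-like cells at 139.95 CPM in UT against 246 CPM in BUP, while cDC2 or moDC-like cells stood at 107 CPM in UT against 92.00 CPM in BUP and Inhba macrophage-like cells at 79.4 CPM in UT against 109 CPM in BUP, in an order that differed between the libraries. Icosl, the ligand of ICOS, stood at 56.7 CPM in UT against 38.4 CPM in BUP in migratory DC-like cells and at 43.3 CPM in UT against 37.1 CPM in BUP in cDC2 or moDC-like cells, with overlapping intervals. Cd40lg was near the limit of detection in every class. In the mixed Foxp3 T-like class it stood at 12.8 CPM (3.48 to 32.7) in UT against 40.6 CPM (19.5 to 74.7) in BUP, from 14 UMIs in all, with overlapping intervals. The gamma-delta T-like class, with 3 UMIs, was the other class with over 10 CPM.

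**Figure D1:**
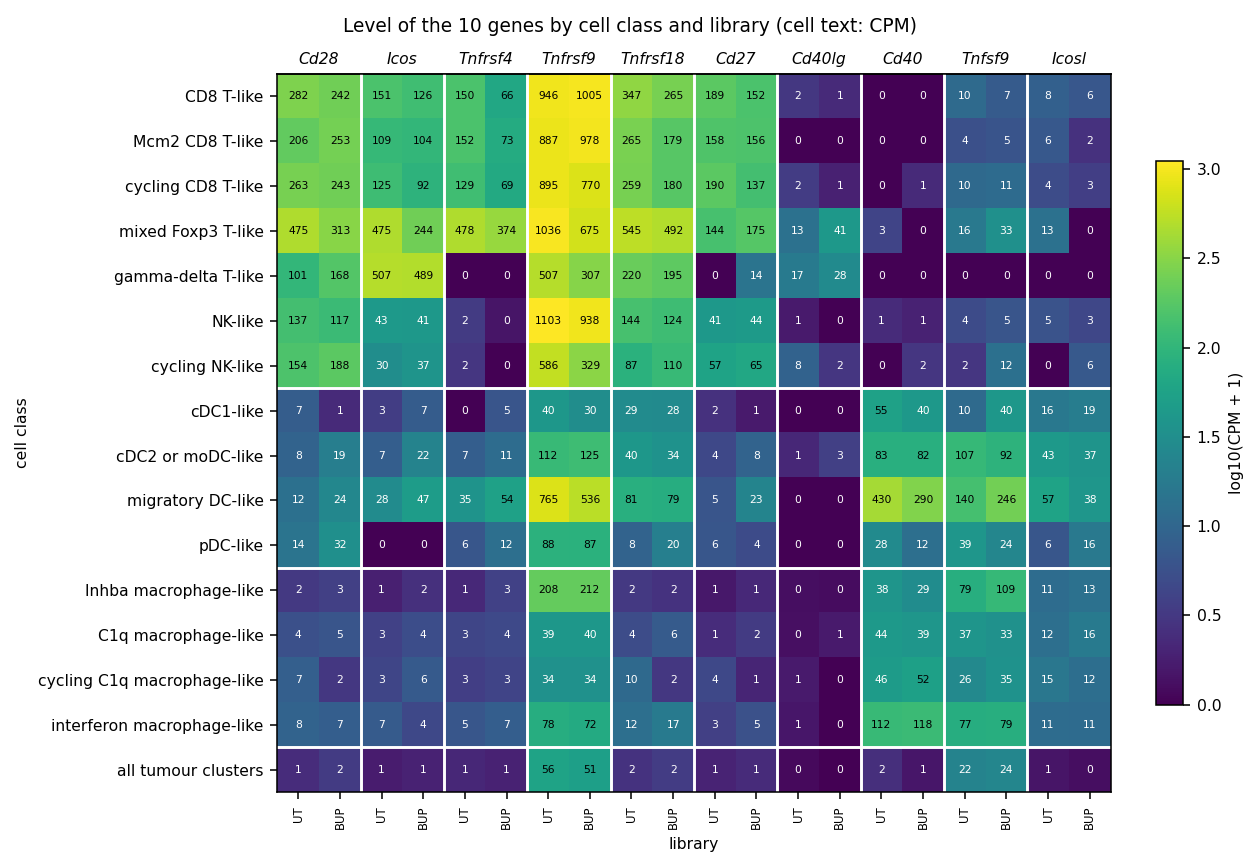
Level of each member (columns, UT left and BUP right) in the 15 classes and in the pooled tumour clusters (rows), as log10(CPM + 1), with the CPM printed in each cell to the nearest whole number. The receptors Cd28, Icos and Tnfrsf18 fill the T and NK rows, and Cd27 fills them except for the gamma-delta T-like row. Among the T and NK rows, Tnfrsf4 fills only those of the CD8 T-like classes and the mixed Foxp3 T-like class. Cd40, Tnfsf9 and Icosl fill the dendritic and macrophage rows. Tnfrsf9 is seen in the T and NK rows, the dendritic and macrophage rows and the tumour row.

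Tnfrsf9 and Tnfsf9 were also counted in the tumour clusters. Over the 3 tumour clusters Tnfrsf9 stood at 56.5 CPM (53.7 to 59.4) in UT against 50.7 CPM (48.7 to 52.7) in BUP, and Tnfsf9 at 21.98 CPM (20.3 to 23.8) in UT against 23.9 CPM (22.5 to 25.3) in BUP. Tnfrsf9 UMIs per Cd3e UMI were 12.6 in UT and 5.23 in BUP in the tumour clusters, 0.679 and 0.691 over all CD8 T-like cells, 29.4 and 29.98 in NK-like cells and 67.0 and 55.3 in Inhba macrophage-like cells. The tumour ratio thus lay above that of T cells and below those of NK-like and Inhba macrophage-like cells. Macrophage markers summed to 797 CPM in UT against 429 CPM in BUP in the tumour clusters, and the part of RNA from other cells in these levels was not tested. The other 8 members stood at or below 2.45 CPM over the pooled tumour clusters. Some were higher in the cycling tumour cluster, with Cd28 at 3.43 CPM in UT against 10.8 CPM in BUP, Tnfrsf18 at 4.00 CPM in UT against 9.59 CPM in BUP and Cd27 at 1.86 CPM in UT against 6.83 CPM in BUP. T cell markers summed to 17.4 CPM in UT against 34.3 CPM in BUP over the tumour clusters, with all 5 higher in BUP. Of the cycling tumour cells, 22.8% were in the top 6% by doublet score, against 6.36% and 5.44% in the other tumour clusters. The part of T cell RNA in these levels was not tested.

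Tnfrsf4 showed the largest difference between the libraries among the 6 measured members in CD8 T-like cells. In the CD8 T-like class it stood at 150.02 CPM (131 to 171) in UT against 66.1 CPM (56.03 to 77.5) in BUP, from 217 and 152 UMIs in 226 UT and 385 BUP cells. The log2 ratio was -1.18 (-1.49 to -0.88), and the intervals of the libraries did not overlap. The same was seen in the Mcm2 CD8 T-like class, which expresses DNA replication genes (152 CPM in UT against 73.1 CPM in BUP, log2 ratio -1.06 (-1.60 to -0.53)), and in the cycling CD8 T-like class (129 CPM in UT against 69.1 CPM in BUP, log2 ratio -0.91 (-1.24 to -0.58)). Tnfrsf4 was the only 1 of the 6 measured members past the fold in each of these 3 classes. Of all measured genes, 6.49% were lower in BUP past the fold in the CD8 T-like class, 7.29% in the Mcm2 class and 5.04% in the cycling class, and 2.74%, 3.88% and 4.58% were higher.

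Transcripts of other cells moved with this difference. Cd4 stood at 15.2 CPM in UT against 2.18 CPM in BUP in the CD8 T-like class, beside Foxp3 at 0 CPM in UT against 0.435 CPM in BUP. In the CD8 T-like cells that held a Cd8a or Cd8b1 UMI and no Cd4 UMI (212 UT and 378 BUP cells, a selection chosen after the data were seen), Tnfrsf4 stood at 148 CPM (128 to 169.6) in UT and 66.9 CPM (56.7 to 78.5) in BUP. In the cycling CD8 T-like cells selected in this way (83 UT and 182 BUP cells) it stood at 108 CPM (89.0 to 129) in UT and 65.5 CPM (55.0 to 77.4) in BUP. In the Mcm2 CD8 T-like cells so selected (52 UT and 50 BUP cells) it stood at 144 CPM (115 to 178) in UT and 52.5 CPM (34.6 to 76.4) in BUP. The part of other cells in the difference was not tested. In the CD8 T-like cells with under 0.1% of their UMIs from macrophage markers (185 UT and 368 BUP cells) the log2 ratio of Tnfrsf4 was -1.18, and in those with no such UMI, of which UT had only 14, it was -0.76. These selections too were chosen after the data were seen. In the macrophage classes, whose markers were higher in the UT T cells, Tnfrsf4 did not exceed 7.07 CPM. With equal weight per cell the ratio in cycling CD8 T-like cells was -0.51, inside the fold.

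The neighbouring gene Tnfrsf18 and the receptors Cd27, Icos and Cd28 differed less. In CD8 T-like cells Tnfrsf18 stood at 347 CPM (317 to 379) in UT against 265 CPM (244 to 286) in BUP, a log2 ratio of -0.39 (-0.56 to -0.22). Cd27 stood at 189 CPM (167 to 212) in UT against 152 CPM (137 to 169) in BUP, a log2 ratio of -0.31 (-0.54 to -0.08). These intervals lay below 0 but within the fold. Icos stood at 151 CPM (131 to 172) in UT against 126 CPM (112 to 142) in BUP, a log2 ratio of -0.26 (-0.51 to 0.00). Cd28 stood at 282 CPM (255 to 311) in UT against 242 CPM (223 to 263) in BUP, a log2 ratio of -0.22 (-0.41 to -0.03). Tnfrsf9 was not lower: it stood at 946 CPM (897 to 998) in UT against 1005 CPM (964 to 1047) in BUP, a log2 ratio of 0.09 (-0.01 to 0.18). The median log2 ratio in CD8 T-like cells was -0.28 over the 6 measured members and -0.06 over the 7253 measured genes. Among the 3 CD8 T-like classes, Cd28 and Tnfrsf9 had ratios of both signs, while Tnfrsf18, Icos and Cd27 were below 0 in all 3. Cd27 was only -0.013 in the Mcm2 class. After thinning, as described next, the ratio in the Mcm2 class was 0.077 for Tnfrsf18 and 0.38 for Cd27. That of Icos was 0.46 in the Mcm2 class and 0.064 in the cycling class. In cycling cells without a macrophage UMI (2 UT and 48 BUP cells), Icos was 1.13 and Tnfrsf18 0.79. This selection was chosen after the data were seen.

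**Figure D2:**
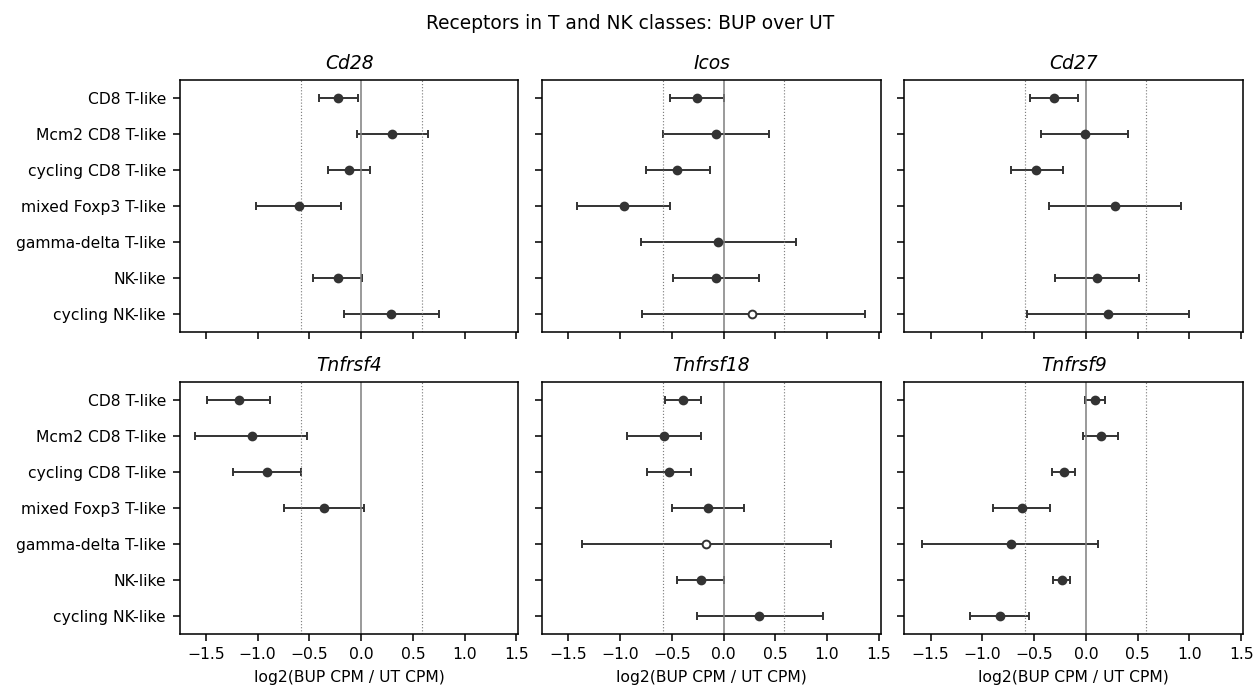
log2 ratio of BUP over UT for 6 receptors (panels) in the T and NK classes (rows), with exact 95% intervals for counting error as bars, open points for 20 to 49 UMIs, no point under 20 UMIs or with 0 in a library, and dotted lines at 1.5-fold. Tnfrsf4 lies beyond the left dotted line in the 3 CD8 T-like classes, and Icos, Cd28 and Tnfrsf9 do so in the mixed Foxp3 T-like class.

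The share of cells with a UMI of Tnfrsf4 differed in the same direction when every cell was thinned to 2000 UMIs. Over all CD8 T-like cells, Tnfrsf4 was detected in 21.7% of UT cells (17.6 to 26.2, 80 of 369) and 10.3% of BUP cells (8.04 to 12.99, 64 of 620) after thinning, against 53.7% of UT and 27.7% of BUP cells before it. The median depth of these cells was 7770 UMIs in UT and 6819 in BUP, and 7 UT and 19 BUP cells were too shallow to thin. In the tumour clusters, at median depths of 20336 and 17749 UMIs, the thinned share was 0.182% of UT and 0% of BUP cells, the latter 0 of 2411. Tnfrsf18 was detected in 47.97% of UT cells (42.8 to 53.2, 177 of 369) and 36.5% of BUP cells (32.7 to 40.4, 226 of 620) of the thinned CD8 T-like cells, and Cd27 in 30.4% of UT cells (25.7 to 35.3, 112 of 369) and 23.1% of BUP cells (19.8 to 26.6, 143 of 620). For Icos and Cd28 the thinned intervals of the libraries overlapped, as they did for Tnfrsf9, detected in 71.3% of UT cells (66.4 to 75.8, 263 of 369) and 72.3% of BUP cells (68.6 to 75.7, 448 of 620).

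**Figure D3:**
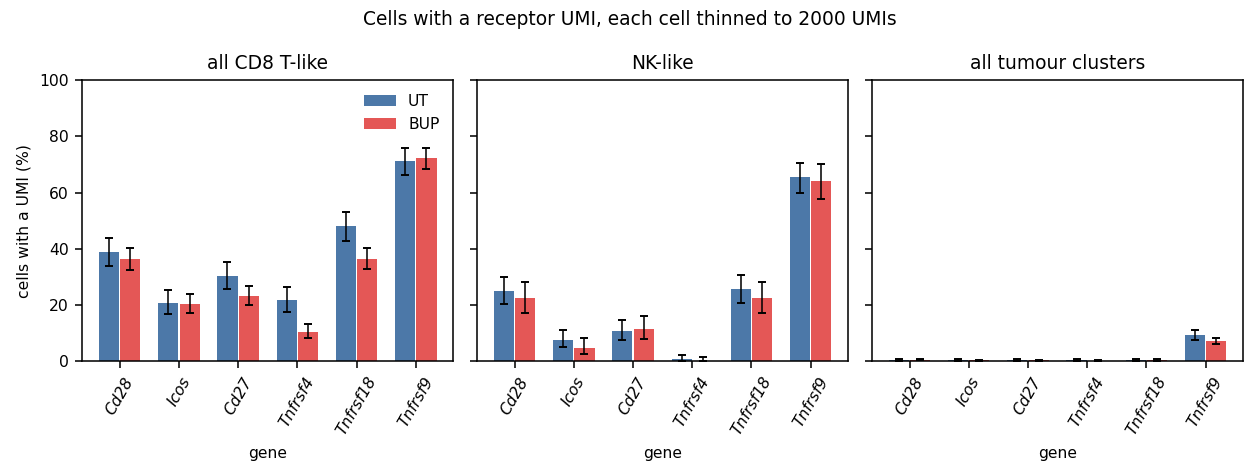
Percentage of cells with at least 1 UMI of each receptor after thinning every cell to 2000 UMIs, in all CD8 T-like cells, NK-like cells and the tumour clusters as background; bars are shares in UT (blue) and BUP (red), and error bars are exact 95% binomial intervals. Tnfrsf4 in CD8 T-like cells is the receptor with the largest relative gap between the libraries, and the background is near 0 for all but Tnfrsf9.

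Cells with several of the 6 receptors Cd28, Icos, Tnfrsf4, Tnfrsf9, Tnfrsf18 and Cd27 were less frequent in BUP in the main CD8 T-like class. After thinning, 47.3% (40.5 to 54.1) of UT cells and 30.8% (26.1 to 35.8) of BUP cells held 3 or more of them. In the Mcm2 CD8 T-like class the order was opposite, at 25.9% (15.3 to 39.04) in UT and 45.5% (31.97 to 59.4) in BUP, with overlapping intervals. In NK-like cells the shares were 11.6% (8.33 to 15.7) and 5.91% (3.27 to 9.71), also overlapping. In the tumour clusters, 0 of 1100 UT and 1 of 2411 BUP cells held 3 or more.

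In the mixed Foxp3 T-like class (89 UT and 64 BUP cells) 3 of the 6 measured members were lower in BUP past the fold, where 18.3% of all measured genes were lower and 8.02% higher. Icos stood at 475 CPM (402 to 558) in UT against 244 CPM (186 to 314) in BUP, a log2 ratio of -0.96 (-1.42 to -0.52). Cd28 stood at 475 CPM (402 to 558) in UT against 313 CPM (247 to 391) in BUP, a log2 ratio of -0.60 (-1.02 to -0.20). Tnfrsf9 stood at 1036 CPM (927 to 1155) in UT against 675 CPM (576 to 785) in BUP, a log2 ratio of -0.62 (-0.90 to -0.35). The Cd28, Icos and Tnfrsf9 intervals did not overlap between the libraries, while Tnfrsf4, at a log2 ratio of -0.36 (-0.75 to 0.03), Tnfrsf18, at -0.15 (-0.50 to 0.19), and Cd27, at 0.28 (-0.35 to 0.92), had intervals that included 0. The median log2 ratio was -0.48 over the 6 measured members and -0.11 over the 2058 measured genes. Il2ra, another regulatory T cell marker, stood at 453 CPM in UT against 150.3 CPM in BUP in this class and moved with the members, as did Foxp3. When every cell weighed equally, the log2 ratio of Cd28 was -0.08, that of Icos -0.49 and that of Tnfrsf9 -0.45, and with the libraries scaled by the median ratio of genes those of Cd28 and Tnfrsf9 were -0.53 and -0.54, all inside the fold.

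The class was therefore also read by whether a cell held a Foxp3 UMI, a split chosen after the data were seen, which 21 UT and 10 BUP cells did. Foxp3 encodes the defining transcription factor of regulatory T cells. In cells with a Foxp3 UMI, Tnfrsf4 stood at 1235 CPM (1021 to 1482) in UT against 1387 CPM (1082 to 1753) in BUP, with intervals that overlapped. In cells without one it stood at 155 CPM (107 to 216) in UT against 112 CPM (70.5 to 170.3) in BUP. Tnfrsf4 was thus several times higher beside Foxp3 in both libraries, and the same order held for Icos, at 1129 CPM in UT against 674 CPM in BUP with and 196 CPM in UT against 133 CPM in BUP without Foxp3, and for Tnfrsf18, at 927 CPM in UT against 872 CPM in BUP with and 382 CPM in UT against 394 CPM in BUP without. Between the libraries, the log2 ratio of Icos in the cells with Foxp3 was -0.74 (-1.35 to -0.17), that of Cd28 -0.81 (-1.63 to -0.05) and that of Tnfrsf9 -0.86 (-1.27 to -0.46). The difference in Tnfrsf9 was not found in the cells without Foxp3, where the log2 ratio was 0.17 (-0.25 to 0.58). Whether the ratios of these groups of cells differ was not tested. All 14 Cd40lg UMIs of the class were in cells without a Foxp3 UMI, 4 in UT and 10 in BUP.

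**Figure D4:**
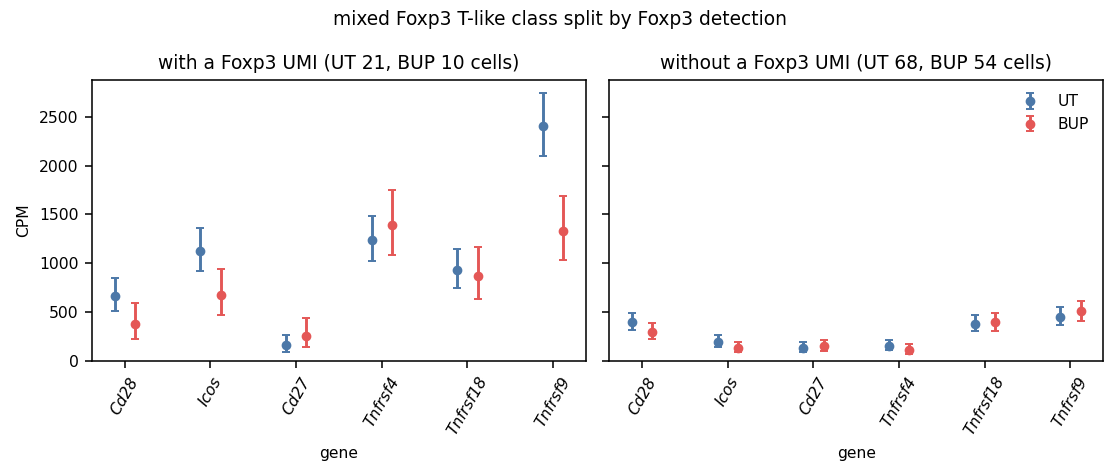
CPM of 6 receptors in cells of the mixed Foxp3 T-like class with (left) and without (right) a Foxp3 UMI, in UT (blue) and BUP (red), with exact 95% Poisson intervals. Tnfrsf4, Tnfrsf9, Icos and Tnfrsf18 are higher in the left panel in both libraries, which rests on 21 UT and 10 BUP cells.

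NK-like cells (329 UT and 250 BUP cells) held Cd28, Icos, Tnfrsf9, Tnfrsf18 and Cd27 at measurable levels, and 0 of these 5 members were past the fold, where 6.71% of all measured genes were lower and 1.73% higher. Tnfrsf9 stood at 1103 CPM (1065 to 1141) in UT against 938 CPM (896 to 981) in BUP, a log2 ratio of -0.23 (-0.32 to -0.15). Cd28, at -0.23 (-0.46 to 0.01), and Tnfrsf18, at -0.22 (-0.45 to 0.01), had intervals that reached 0. In cycling NK-like cells (52 UT and 51 BUP cells), Tnfrsf9 was the 1 of 4 measured members past the fold, at 586 CPM (521 to 658) in UT against 329 CPM (280.2 to 384) in BUP, against 6.2% of measured genes lower and 5.8% higher. With equal weight per cell its log2 ratio was -0.32. In the gamma-delta T-like class, 1 of 2 measured members, Tnfrsf9, was lower past the fold at 507 CPM in UT against 307 CPM in BUP, but its log2 ratio of -0.72 (-1.59 to 0.12) included 0 and reversed when every cell weighed equally (0.21), and 10.6% of measured genes were lower and 10.1% higher there. Icos in this class stood at a log2 ratio of -0.05 (-0.80 to 0.70).

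Tnfsf9 had the largest ratio among the measured members of dendritic cells. In cDC1-like cells, which cross-present antigen to CD8 T cells, it stood at 10.4 CPM (5.38 to 18.2) in UT against 39.8 CPM (30.4 to 51.2) in BUP, from 12 and 60 UMIs, a log2 ratio of 1.93 (1.02 to 2.96). In migratory DC-like cells, which carry antigen to lymph nodes, it stood at 139.95 CPM (111 to 174) in UT against 246 CPM (207 to 290.1) in BUP, a log2 ratio of 0.81 (0.41 to 1.23). Neither pair of intervals overlapped. Macrophages also held Tnfsf9, and macrophage markers in migratory DC-like cells summed to 1081 CPM in UT against 1933 CPM in BUP, which moved with the difference and whose part in it was not tested. In cDC2 or moDC-like cells the log2 ratio was -0.22 (-0.70 to 0.25), and it was 0.71 with equal weight per cell, so its direction there was not settled. Tnfsf9 was detected in 11.6% of UT and 27.8% of BUP cells of the cDC1-like class and 36.5% of UT and 54.4% of BUP cells of the migratory DC-like class. After thinning to 2000 UMIs the shares were 1.49% of UT cells (0.0378 to 8.04, 1 of 67) and 5.56% of BUP cells (1.83 to 12.5, 5 of 90) for cDC1-like cells and 12.9% of UT cells (5.74 to 23.9, 8 of 62) and 26.2% of BUP cells (15.8 to 39.1, 16 of 61) for migratory DC-like cells, with overlapping intervals, beside 4.64% of UT and 4.77% of BUP cells in the tumour clusters. The thinned intervals of the cDC1-like class include the tumour shares.

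Cd40, by which helper T cells license dendritic cells, was lower in BUP in migratory DC-like cells, at 430.5 CPM (378 to 488) in UT against 289.6 CPM (247 to 337) in BUP, a log2 ratio of -0.57 (-0.87 to -0.28) that came close to the fold. With equal weight per cell the ratio was -0.11. In cDC1-like cells the log2 ratio of Cd40 was -0.44 (-0.97 to 0.10) and in cDC2 or moDC-like cells -0.01 (-0.54 to 0.51). Tnfrsf9 in migratory DC-like cells stood at 765 CPM (695 to 841) in UT against 536 CPM (477 to 599) in BUP, a log2 ratio of -0.51 (-0.73 to -0.30). The share of these cells with a Tnfrsf9 UMI was not lower, at 67.6% in UT and 73.5% in BUP, and 50% and 59.0% after thinning. For Cd40 it was 66.2% in UT and 79.4% in BUP, and 51.6% and 47.5% after thinning. The intervals of all these shares overlapped between the libraries. Icosl in these cells stood at a log2 ratio of -0.56 (-1.42 to 0.27). Tnfrsf4 in migratory DC-like cells, at 35.4 CPM in UT against 54.1 CPM in BUP, moved with T cell transcripts, as 5 T cell markers summed to 53.1 CPM in UT against 401 CPM in BUP there and all 5 were higher in BUP. When every cell was thinned, the log2 ratio of Tnfrsf4 was -0.46, in the opposite direction.

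Of the measured members, 1 of 4 (Tnfsf9) was higher past the fold in cDC1-like cells, where 3.11% of measured genes were higher and 8.46% lower. In migratory DC-like cells 2 of 6 (Tnfsf9 and Tnfrsf4) were higher, where 7.94% were higher and 7.79% lower. In cDC2 or moDC-like cells 0 of 5 were past the fold, where 11.3% were lower and 10.1% higher. In pDC-like cells only Tnfrsf9 was measured, at a log2 ratio of -0.02 (-0.87 to 0.81).

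In macrophages the members differed little between the libraries. In Inhba macrophage-like cells (1266 UT and 813 BUP cells), Tnfsf9 stood at 79.4 CPM (74.02 to 84.99) in UT against 109 CPM (102 to 117) in BUP, a log2 ratio of 0.46 (0.32 to 0.60), and Cd40 at 38.1 CPM (34.4 to 42.04) in UT against 28.9 CPM (25.1 to 33.03) in BUP, a log2 ratio of -0.40 (-0.65 to -0.16). Both pairs of intervals were separate, and both ratios were within the fold, but that of Cd40 passed it at -0.65 when every cell was thinned. Tnfrsf9 stood at 208 CPM (199 to 217) in UT against 212 CPM (201 to 223) in BUP, a log2 ratio of 0.03 (-0.07 to 0.12). None of the 4 measured members was past the fold, where 3.04% of measured genes were lower and 2.18% higher. In C1q macrophage-like cells (1041 UT and 434 BUP cells) Tnfsf9 had a log2 ratio of -0.16 (-0.40 to 0.07), Cd40 of -0.18 (-0.40 to 0.04) and Icosl of 0.46 (0.09 to 0.83). Of 8 measured members there only Tnfrsf18 was past the fold, at 4.14 CPM in UT against 6.39 CPM in BUP and within it in 3 other clusterings, where 4.47% were higher and 2.8% lower. T cell markers summed to 30.3 CPM in UT against 46.4 CPM in BUP in these macrophages and moved with it. In cycling C1q macrophage-like cells (242 UT and 60 BUP cells), Cd40 stood at 45.9 CPM in UT against 51.97 CPM in BUP, Tnfsf9 at 25.8 CPM in UT against 35.00 CPM in BUP, Icosl at 15.1 CPM in UT against 11.7 CPM in BUP and Tnfrsf9 at 34.1 CPM in UT against 33.9 CPM in BUP, all with overlapping intervals. In interferon macrophage-like cells, named for interferon-induced genes, Cd40 stood at 112 CPM (97.5 to 129) in UT against 118 CPM (95.9 to 143) in BUP and Tnfsf9 at 77.3 CPM (65.05 to 91.1) in UT against 78.98 CPM (61.2 to 100.3) in BUP, with overlapping intervals.

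**Figure D5:**
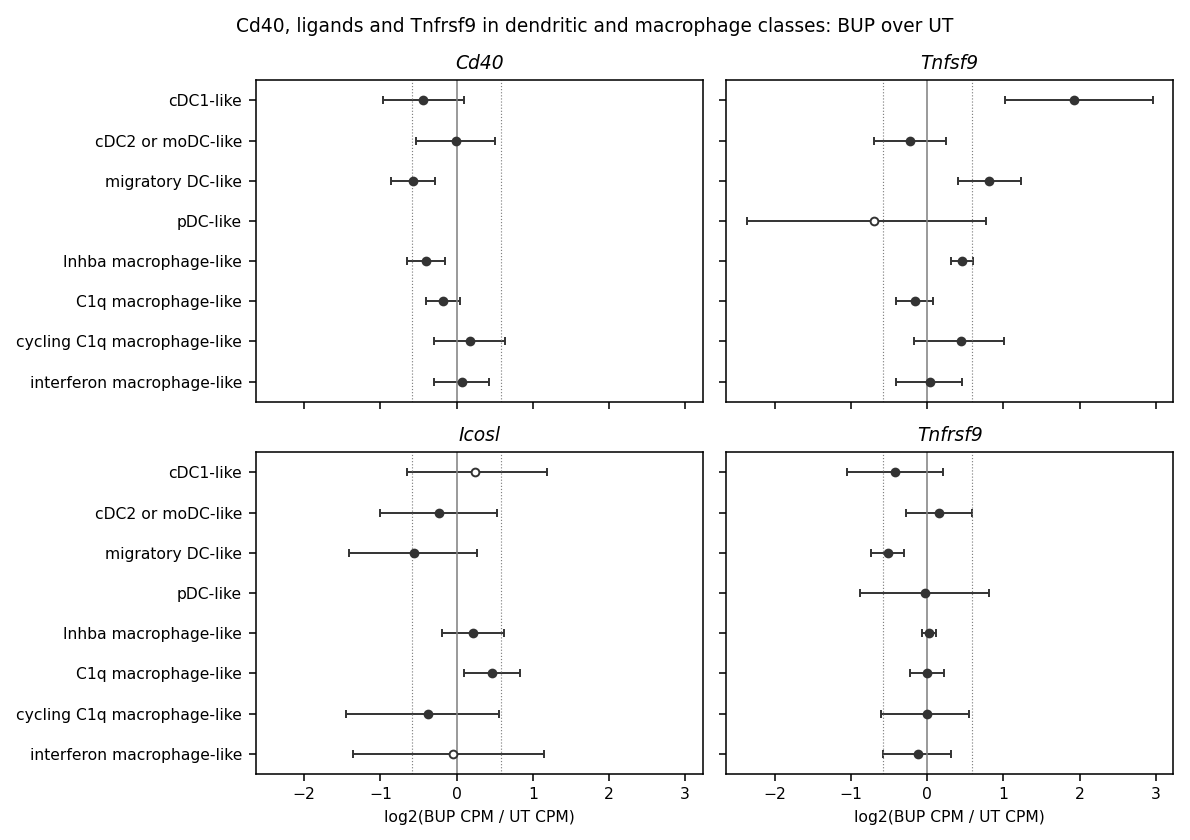
log2 ratio of BUP over UT for Cd40, Tnfsf9, Icosl and Tnfrsf9 (panels) in dendritic and macrophage classes (rows), with exact 95% intervals for counting error as bars, open points for 20 to 49 UMIs, and dotted lines at 1.5-fold. Tnfsf9 lies beyond the right dotted line in cDC1-like and migratory DC-like cells, and Tnfrsf9 in Inhba macrophage-like cells lies at 0.03.

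The partners of the members, 19 further costimulatory ligands and receptors, were read in the same way. In CD8 T-like cells 3 lower and 1 higher of 10 measured were past the fold, where 6.49% of all measured genes were lower and 2.74% higher, with a median log2 ratio of -0.07. Cd226 (DNAM-1), an activating receptor of T and NK cells, stood at 117 CPM (99.9 to 136) in UT against 72.7 CPM (62.05 to 84.5) in BUP, and at 127 CPM (108 to 149) in UT against 50.03 CPM (41.2 to 60.1) in BUP in cycling CD8 T-like cells. In Mcm2 CD8 T-like cells Cd226 stood at 81.95 CPM (61.7 to 107) in UT against 35.7 CPM (22.1 to 54.6) in BUP. Cd226 was thus lower in BUP with separate intervals in each of these classes. Its log2 ratio was -1.20 in the Mcm2 class and -1.34 in the cycling class, larger falls than those of Tnfrsf4 (-1.06 and -0.91). In the CD8 T-like class it was -0.69, a smaller fall than that of Tnfrsf4 (-1.18). In cycling CD8 T-like cells 3 lower and 0 higher of 9 measured partners were past the fold. Of all measured genes there, 5.04% were lower and 4.58% higher. In the CD8 T-like class Cd2, the adhesion receptor of T cells, stood at 165 CPM (144 to 187) in UT against 104 CPM (90.8 to 118) in BUP. Tnfrsf14 (HVEM) in the CD8 T-like class stood at 13.1 CPM (7.91 to 20.5) in UT against 20.4 CPM (15.02 to 27.2) in BUP, with overlapping intervals. In migratory DC-like cells 1 higher and 0 lower of 6 measured partners were past the fold. Of all measured genes there, 7.94% were higher and 7.79% lower. In C1q macrophage-like cells 2 higher and 0 lower of 11 were past it, where 4.47% were higher and 2.8% lower. These 2 were Cd80 and Cd2, the latter at 4.68 CPM in UT against 7.23 CPM in BUP. T cell markers summed to 30.3 CPM in UT against 46.4 CPM in BUP there. In cDC2 or moDC-like cells 1 lower and 0 higher of 6 were past it, where 11.3% were lower and 10.1% higher. In migratory DC-like cells Cd70, the ligand of CD27, stood at 46.1 CPM (30.1 to 67.5) in UT against 80.3 CPM (58.8 to 107) in BUP. Cd80, a ligand of CD28, stood at 32.4 CPM (29.5 to 35.4) in UT against 52.8 CPM (47.1 to 58.96) in BUP in C1q macrophage-like cells, and Cd86, the other ligand, at 252 CPM (244 to 261) in UT against 357 CPM (342 to 372) in BUP with a log2 ratio of 0.50 (0.42 to 0.58). Both CD28 ligands were thus higher in BUP in these macrophages, Cd86 within the fold. In dendritic cells Cd86 was lower in BUP within the fold, at 618 CPM (555 to 687) in UT against 445 CPM (392 to 503) in BUP in migratory DC-like cells and 534 CPM (486 to 587) in UT against 382 CPM (338 to 429) in BUP in cDC2 or moDC-like cells. Cd80 in cDC2 or moDC-like cells had a log2 ratio of -0.52 (-1.02 to -0.04) and in migratory DC-like cells 0.30 (-0.03 to 0.64).

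Of 25 signalling adaptors and NF-kappa B genes downstream of the receptors, 0 lower and 1 higher of 25 measured were past the fold in CD8 T-like cells, against the same shares of all genes, with a median log2 ratio of -0.05. The higher one was Traf6, at 29.7 CPM (21.5 to 40.04) in UT against 46.98 CPM (38.5 to 56.7) in BUP. Malt1, a paracaspase of the pathway to NF-kappa B, was higher past the fold in 6 classes. It stood at 66.8 CPM (53.04 to 83.01) in UT against 128 CPM (113 to 143) in BUP in cycling CD8 T-like cells. In C1q macrophage-like cells it stood at 87.1 CPM (82.4 to 92.00) in UT against 209.6 CPM (198 to 222) in BUP. In cycling CD8 T-like cells it was the 1 higher of 25 measured adaptors, with 0 lower. Of all measured genes there, 4.58% were higher and 5.04% lower. Higher adaptors were 2 of 21 in Mcm2 CD8 T-like, 2 of 21 in cycling NK-like, 1 of 20 in cDC1-like and 3 of 22 in interferon macrophage-like cells. Of all measured genes, 3.88%, 5.8%, 3.11% and 224 of 5924 were higher there. Lower adaptors in the same order were 1, 2, 2 and 0. Nfkbia, an NF-kappa B target and inhibitor, stood at 593 CPM (565 to 621) in UT against 940.3 CPM (899 to 983) in BUP in NK-like cells. Of 25 measured adaptors there it was the 1 higher past the fold. The 1 lower was Prkcq, at 137 CPM in UT against 90.9 CPM in BUP. Of all measured genes there, 1.73% were higher and 6.71% lower. In the mixed Foxp3 T-like class 2 lower and 0 higher of 17 measured adaptors were past the fold. Of all measured genes there, 18.3% were lower and 8.02% higher. Traf3, an adaptor that restrains the alternative NF-kappa B pathway, was 1 of the 2 and stood at 195 CPM (149 to 249.9) in UT against 85.3 CPM (52.8 to 130.4) in BUP. In C1q macrophage-like cells 0 lower and 3 higher of 25 measured were past the fold, where 2.8% of all measured genes were lower and 4.47% higher.

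The genes whose pattern over the 15 classes and 2 libraries (30 points) was most like a member were found among 10993 genes by Pearson's r of log2(CPM + 1), as a description of points that share libraries. Cd28 was most like Gimap4, Gimap1 and Skap1 (r from 0.971 to 0.981), genes of lymphocytes. Cd27 was most like Cd160, Klrc2 and Tigit (r from 0.93 to 0.936). Tnfrsf4 was most like Gpm6b, Neb and Penk (r from 0.852 to 0.897), of which Penk encodes proenkephalin. Icos was most like Pglyrp2, St6galnac3 and Cd247 (r from 0.925 to 0.941) and Tnfrsf9 like Stk24, B4galnt1 and Rhof (r from 0.909 to 0.917). Cd40 was most like Tnfrsf11a, Htr7 and Marcks (r from 0.944 to 0.957), where Tnfrsf11a encodes the receptor RANK. Tnfsf9 was most like Sowahc, Cd86 and Ogfrl1 (r from 0.884 to 0.929), where Cd86 is the CD28 ligand named above, and Icosl was most like Lipe, Cpne2 and Nrp2 (r from 0.867 to 0.897). Cd40lg rested on 56 UMIs and was not read.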

How the data were processed

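Single-cell suspensions of CT26 tumours were profiled with the 10x 5′ chemistry. The deposited values are raw UMI counts per gene and cell, which the authors made with Cell Ranger (8.0.1 in the file header) on GRCm39 and filtered to called cells. Here, cells with over 100 UMIs and under 20% mitochondrial UMIs were kept and clustered in Seurat 5.3.0 under R 4.3.3 (the submitters' notes name Seurat 5.0.1) with 2000 variable genes, 20 principal components and resolution 0.5. All cells, then clusters with Ptprc in at least 30% of cells, then T and NK cells were clustered, with 54 member and pathway genes held out of the variable genes. Class names rest on marker genes. No doublets were removed in the main analysis beyond clusters with mixed markers. Leaving out the cells in the top 6% by Scrublet score (scanpy 1.11.5) was an alternative. UMIs were summed per class and library and scaled to CPM. Levels have exact Poisson intervals, ratios exact conditional and shares exact binomial (Clopper-Pearson) intervals at 95%, computed with scipy 1.17.1 and tested on simulated data. They cover counting error only. A count of 0 was read as allowing up to 3 counts. All members were named, and partner and adaptor genes where past the fold with the largest ratios, except those set beside them for comparison. Promoters were read from the reference at starts of the annotated canonical transcripts. The members and lists were chosen with earlier results of these data known. The genes most like Tnfrsf18 are not reported here.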

Additional observations from a re-analysis of the deposited data

Results flagged for a closer look

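Tnfrsf18 had log2 ratios of BUP over UT of opposite sign in cells of different classes, at 0.63 in C1q macrophage-like cells and -0.57 in Mcm2 CD8 T-like cells (0.077 there after thinning); the difference between these ratios was not tested, and each group was 1 library. Members were also present in myeloid cells outside the classes compared, since Cd40 stood at 40.6 CPM in UT against 65.2 CPM in BUP in monocyte-like cells. Icosl stood at 25.5 CPM in UT against 16.95 CPM in BUP in neutrophil-like cells. These levels were above the limit that a count of 0 allows, and no comparison of the report used them.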

How the results depend on the processing

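Of 742 log2 ratios of members recomputed under 13 alternatives, 669 stayed within the counting interval of the reported value, 70 moved beyond it, and 3 that were past the fold changed sign; of 133 past the fold, 110 remained past it. Over all 742, 91 changed sign. For Tnfrsf4 in CD8 T-like cells the ratio lay between -1.23 and -0.76, and for Tnfsf9 in migratory DC-like cells between 0.80 and 1.47. The 70 were 26 under thinning, 22 in cells without a macrophage UMI, 10 with equal weight per cell, 3 without the top doublet scores, 3 before the split of T and NK cells, 2 with 30 principal components and 1 each at resolution 1, with median-ratio scaling, in cells under 0.1% macrophage UMIs and in cells with a Foxp3 UMI. Those of the main results are given next, and the cause was not tested. With equal weight per cell, Tnfrsf4 was -0.51 in cycling CD8 T-like cells, Cd28 -0.077 and Icos -0.49 in the mixed Foxp3 T-like class, Tnfrsf9 -0.15 in NK-like cells and Cd40 -0.11 in migratory DC-like cells, and Tnfrsf9 reversed to 0.21 in gamma-delta T-like cells. With cells thinned to 2000 UMIs, Cd27 was -0.55 in CD8 T-like cells, Tnfrsf9 -0.26 in the mixed Foxp3 T-like class, Tnfsf9 1.47 in migratory DC-like cells, Tnfrsf9 -0.19, Cd40 -0.65 and Icosl -0.24 in Inhba macrophage-like cells, and Cd40 -0.65 and Tnfsf9 -0.65 in C1q macrophage-like cells, while Tnfrsf9 reversed to 1.24 in gamma-delta T-like cells and Tnfrsf4 to -0.46 in migratory DC-like cells. Among the others, Icos in NK-like cells was -0.97 and Tnfrsf9 in cDC1-like cells -3.01 when thinned. The alternatives that follow were chosen after the data were seen. In cells without a macrophage UMI (14 UT and 121 BUP CD8 T-like cells, 2 and 48 cycling ones, 15 and 21 mixed Foxp3 T-like, 37 and 84 NK-like), Cd28 was -0.97, Tnfrsf4 -0.76, Tnfrsf9 1.05 and Cd27 0.61 in CD8 T-like cells. In the same setting Tnfrsf4 was -0.40, Icos 1.13 and Tnfrsf18 0.79 in cycling CD8 T-like cells. There too, Icos was -2.61 and Cd27 1.11 in the mixed Foxp3 T-like class, and Tnfrsf9 0.16 and Tnfrsf18 0.028 in NK-like cells. In the mixed Foxp3 T-like class, Tnfrsf9 was -0.34 in cells with under 0.1% macrophage UMIs, Tnfrsf4 was 0.17 in cells with a Foxp3 UMI, and before the T and NK cells were split further Cd28 was -0.16, Icos -0.34 and Tnfrsf9 -0.28. With 30 principal components the Mcm2 CD8 T-like and cycling C1q macrophage-like classes were not found and gave no value. No paired analysis was possible because each group was 1 library. Raising the minimum from 50 to 200 UMIs changed the percentage of genes past the fold, as CD8 T-like from 6.49% to 2% lower and 2.74% to 1.25% higher, Mcm2 CD8 T-like from 7.29% to 1.52% lower and 3.88% to 1.82% higher, cycling CD8 T-like from 5.04% to 1.86% lower and 4.58% to 2.15% higher, mixed Foxp3 T-like from 18.3% to 9.33% lower and 8.02% to 10.7% higher, gamma-delta T-like from 10.6% to 6.06% lower and 10.1% to 7.07% higher, NK-like from 6.71% to 2.19% lower and 1.73% to 0.784% higher, cycling NK-like from 6.2% to 2.88% lower and 5.8% to 1.65% higher, cDC1-like from 8.46% to 3.39% lower and 3.11% to 1.25% higher, cDC2 or moDC-like from 11.3% to 8.71% lower and 10.1% to 8.37% higher, migratory DC-like from 7.79% to 4.3% lower and 7.94% to 4.19% higher, Inhba macrophage-like from 3.04% to 1.15% lower and 2.18% to 0.833% higher, C1q macrophage-like from 2.8% to 1.13% lower and 4.47% to 2.39% higher. Depth limits members with few UMIs, such as Cd40lg.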
